A study of Homo sapiens with 4 samples.

Results

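Open chromatin was profiled by ATAC-seq in 786-O, an established line of human clear cell kidney cancer in which VHL is inactive, and 2292 regions that were open in every library ranked higher without DEK. DEK KO cells (2 libraries) were made by infecting Cas9-expressing cells with virus carrying DEK guide RNAs and sorting single cells, so each library may stem from a single clone; the guides and clones are not told apart by the labels. WT controls (2 libraries) were Cas9-expressing cells without a DEK guide, themselves derived from a clone, and Cas9 is thus shared by both groups. Whether the replicates of a genotype are separate cultures or clones is not in the labels. Each library is represented by the peak list its authors deposited on GRCh38.

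The members were chosen by the −log10 p of the deposited peaks, turned into ranks. Peaks on chromosomes 1 to 22 were merged across the 4 lists where they overlapped by at least 1 bp, which gave 134897 regions, and 61035 of these (45.2%) had a peak in all 4 lists and are called shared regions. In each list a shared region took its highest −log10 p and was given its percentile among the 61035. A region gained rank when the lower of its 2 DEK KO percentiles exceeded the higher of its 2 WT control percentiles by 20 or more, and this difference is called the margin. The 2292 members are 3.76% of the shared regions, and 1666 regions (2.73%) lost rank by the mirrored rule. Since the rule compared DEK KO with WT control, every difference between the genotypes in these regions is a description and carries no test.

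DEK is an abundant chromatin protein that binds DNA, prefers distorted DNA such as cruciforms, and passes histones as a chaperone. Accessible regions away from gene ends include enhancers, where transcription factors such as AP-1, a dimer of FOS and JUN proteins, keep nucleosomes displaced. In the renal tubule, from which this tumour type arises, PAX8 and PAX2 are lineage factors, and loss of VHL stabilises the HIF proteins of the hypoxia response. A peak rank measures how strongly a site stands out within its own library, not how many cells carry it open. Of 10 marker genes of renal tubular carcinoma, 8 had a shared region within 1 kb of a gene end, PAX8 and VIM among them and PAX2 and CA9 not, against 3 of 12 markers of blood, endothelium, neurons and hepatocytes.

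No genome sequence was read here, so the sequences that can be shown are promoters, from a RefSeq table of GRCh38.p14 that holds 300 bases per start site, 250 before it and 50 from it on. Members covered at least 150 bases of such a window in 63 cases (2.75% of members), so the sequences read below describe only that part of them. Regions that lost rank did so in 4.74% of cases and all shared regions in 15.3%. The exact 95% intervals of members and of regions that lost rank did not overlap. The 6 windows below were picked after their values were seen, to show the kinds of promoter among the members. AP-1 letters (TGANTCA, with any base counted at N) and GC boxes of SP and KLF factors (GGGCGG), on either strand, are in capitals. Everything else is in lower case.
CUL2: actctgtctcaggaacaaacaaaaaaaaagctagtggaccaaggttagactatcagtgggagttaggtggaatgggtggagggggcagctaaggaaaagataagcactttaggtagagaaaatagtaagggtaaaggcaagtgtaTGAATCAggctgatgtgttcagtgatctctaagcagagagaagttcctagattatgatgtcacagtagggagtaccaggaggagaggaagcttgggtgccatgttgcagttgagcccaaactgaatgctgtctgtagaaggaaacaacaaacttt
NXPE2: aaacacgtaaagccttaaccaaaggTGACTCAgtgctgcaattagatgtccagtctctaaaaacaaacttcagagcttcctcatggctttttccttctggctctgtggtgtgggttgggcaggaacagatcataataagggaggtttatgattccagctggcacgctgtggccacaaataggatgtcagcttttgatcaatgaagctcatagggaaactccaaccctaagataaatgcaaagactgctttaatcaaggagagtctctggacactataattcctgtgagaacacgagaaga
CXCL8: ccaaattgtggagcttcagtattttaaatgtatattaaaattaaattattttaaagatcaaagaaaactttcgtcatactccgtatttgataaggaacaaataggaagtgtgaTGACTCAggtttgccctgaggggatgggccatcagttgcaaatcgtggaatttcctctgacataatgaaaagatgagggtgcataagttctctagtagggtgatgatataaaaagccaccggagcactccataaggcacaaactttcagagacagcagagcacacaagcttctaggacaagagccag
SMARCB1: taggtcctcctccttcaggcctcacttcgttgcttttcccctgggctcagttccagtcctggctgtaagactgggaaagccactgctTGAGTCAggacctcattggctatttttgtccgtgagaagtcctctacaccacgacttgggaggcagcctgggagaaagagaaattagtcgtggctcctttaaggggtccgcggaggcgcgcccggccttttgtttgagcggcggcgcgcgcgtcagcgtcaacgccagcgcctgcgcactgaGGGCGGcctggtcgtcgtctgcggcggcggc
KIF7: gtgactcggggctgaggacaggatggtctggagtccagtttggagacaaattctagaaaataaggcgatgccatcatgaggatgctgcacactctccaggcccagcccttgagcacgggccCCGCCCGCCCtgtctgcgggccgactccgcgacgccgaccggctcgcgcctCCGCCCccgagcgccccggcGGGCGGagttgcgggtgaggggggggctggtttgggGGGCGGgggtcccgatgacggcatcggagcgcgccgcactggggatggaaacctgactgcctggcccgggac
XDH: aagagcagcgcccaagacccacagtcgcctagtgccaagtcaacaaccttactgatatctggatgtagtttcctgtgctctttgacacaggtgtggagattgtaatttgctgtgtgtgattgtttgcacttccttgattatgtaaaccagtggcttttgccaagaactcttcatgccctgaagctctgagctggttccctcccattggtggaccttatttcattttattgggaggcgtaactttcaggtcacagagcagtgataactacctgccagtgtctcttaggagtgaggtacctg

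These windows lie at chr10:35074234-35074533 on the minus strand for CUL2, at chr11:114678277-114678576 on the plus strand for NXPE2, and at chr4:73740319-73740618 on the plus strand for CXCL8. Those of SMARCB1 (chr22:23786716-23787015, plus strand), KIF7 (chr15:89655418-89655717, minus strand) and XDH (chr2:31414693-31414992, minus strand) complete the set. CUL2 encodes the cullin scaffold of the VHL ubiquitin ligase, and this window belongs to a start site inside the gene and not at its outer end. It had 61.1 and 47.4 as percentiles in DEK KO replicates 1 and 2, against 2.78 and 4.49 in WT control replicates 1 and 2. The window holds a single match to the AP-1 letters, TGAATCA with A in the middle, that begins 105 bases before the start. It has 44.0% G and C and no CpG. KIF7, a ciliary regulator of Hedgehog signals, is the opposite kind, with 5 GC boxes, 29 CpGs and 69.7% G and C. Its percentiles were 70.5 and 82.3 in DEK KO and 19.6 and 29.1 in WT control replicates 1 and 2. CXCL8, the gene of the chemokine interleukin 8, held its AP-1 match 137 bases before the start, and its region stood at 91.7 and 88.6 in DEK KO against 67.7 and 63.0 in WT control. SMARCB1, a core subunit of SWI/SNF remodelling complexes, had both motifs, and percentiles of 46.2 and 65.7 in DEK KO against 19.99 and 21.1 in WT control. XDH, the xanthine dehydrogenase of purine breakdown, had neither motif, and is described below with the gene ends.

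AP-1 letters were found in 16 of the 63 member windows (25.4%, exact 95% interval 15.3 to 37.9). They were found in 8 of 79 windows in regions that lost rank (10.1%, 4.47 to 19.0), in 752 of 9363 windows over all shared regions (8.03%) and in 2586 of all 33725 windows of the table (7.67%). A single window was taken per region, because windows of neighbouring starts overlap. The member windows included more that were poor in G and C, with 38.1% of them under 50% against 10.5% over all shared regions. Among windows under 50%, AP-1 letters stood in 12 of 24 for the members (50%, 29.1 to 70.9), in 5 of 37 where rank was lost (13.5%) and in 285 of 979 over all shared regions (29.1%). Among the others they stood in 4 of 39 for the members and in 467 of 8384 over all shared regions (10.3% and 5.57%). The share depended on single libraries and on the measure: it was 14.9% without DEK KO replicate 1, 14.5% without WT control replicate 2 and 14.8% when regions were ranked by fold in place of −log10 p.

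Other motifs differed in both directions. GC boxes stood in 33 of 63 member windows (52.4%) against 66.4% over all shared regions, and the ETS letters CCGGAA in 11 (17.5%) against 29.7%. The lower share of GC boxes was not seen among windows of 50% G and C or more. There they stood in 32 of 39 member windows (82.1%, 66.5 to 92.5) and in 73.1% over all shared regions. Among windows under 50% they stood in 1 of 24 member windows and in 8.68% over all shared regions. GATA letters (AGATAA) and the TATA letters TATAAA stood in 10 windows each (15.9%), against 5.35% and 5.62% over all shared regions and 10.4% and 11.6% over the whole table, and in windows that lost rank they stood at 13.9% and 12.7%. The member intervals of both (7.88 to 27.3) lay above the shares over all shared regions, as for AP-1, and included those of the windows that lost rank. In windows under 50% G and C, GATA letters were in 7 of 24 member windows (29.2%, 12.6 to 51.1) and 19.0% of those over all shared regions. TEAD letters (GGAATG) were in 12.7% of member windows (5.65 to 23.5), near the 11.9% over all shared regions, and in 24.1% of windows that lost rank (15.1 to 35.0), with overlapping intervals. The letters CCAAT of NF-Y, TGTGGT of RUNX, TGTTTAC of FOX and ACGTG of the hypoxia response element had overlapping intervals between the members and all shared regions. The letters TGACGTCA (CRE), CACGTG (E-box, which contains ACGTG) and the NRF1 palindrome stood in 2, 2 and 1 member windows (3.17%, 3.17% and 1.59%), against 3.42%, 9.55% and 2.36% over all shared regions. These counts describe letters in a window and say nothing of which factor was bound.

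**Figure D1:**
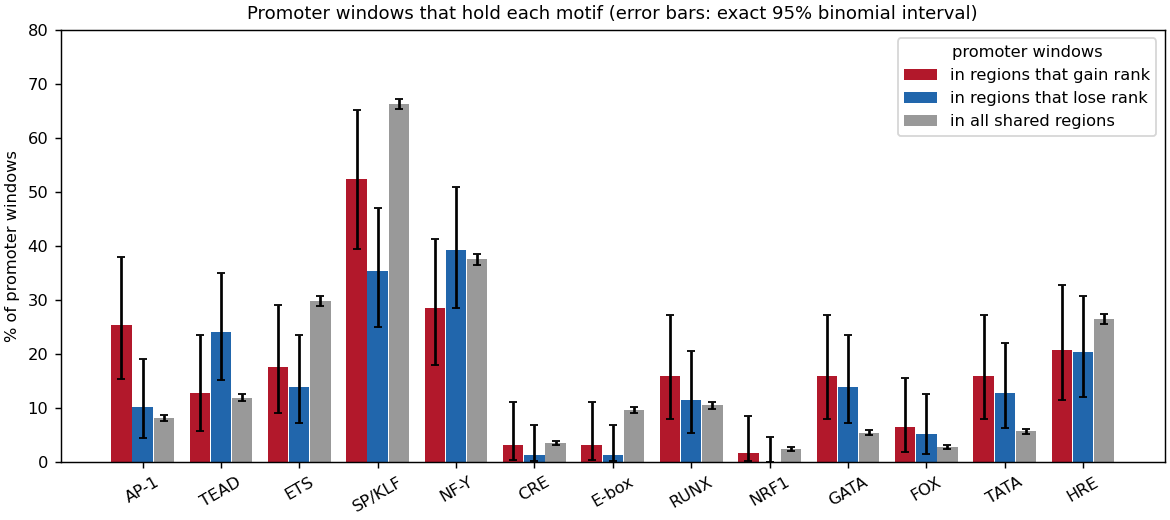
Share of promoter windows that hold each motif, in percent, for windows in regions that gain rank (63), that lose rank (79) and in all shared regions (9363), with exact 95% binomial intervals. AP-1 letters stood in 25.4% of member windows, against 10.1% where rank was lost and 8.03% over all shared regions.

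Of the 63 windows, 41 belong to protein-coding genes and 22 to long noncoding RNAs. Noncoding genes made up 1775 of the 9363 windows over all shared regions. LINC01884 had percentiles of 59.0 and 59.8 in DEK KO against 15.9 and 16.4 in WT control, and PURPL, a noncoding RNA known as a p53 target, had 73.3 and 46.6 against 21.2 and 6.51. Among coding genes, PLTP, the phospholipid transfer protein, stood at 80.7 and 79.1 in DEK KO and at 36.3 and 45.4 in WT control. ZMAT3, an RNA-binding p53 target, had 75.6 and 63.2 against 35.7 and 31.5, and JUP, the plakoglobin of cell junctions, had 87.5 and 89.7 against 57.4 and 61.3. In all of these windows both DEK KO libraries stood above both WT controls, as the rule requires.

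MicroRNA hairpins lay within 1 kb of 6 members (0.262%), against 269 of all shared regions (0.441%). The region at chr11:122145839-122147294 contains the hairpin MIRLET7A2 (chr11:122146522-122146593), and is shown because its mature product let-7a is a broad repressor of growth genes; the seed, bases 2 to 8, is in capitals.
hsa-let-7a-5p: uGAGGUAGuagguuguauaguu
This region had percentiles of 41.2 and 50.4 in DEK KO replicates 1 and 2, against 9.54 and 10.3 in WT control replicates 1 and 2. It was thus of middle rank without DEK and among the weakest shared regions with it. MIR193A lay 829 bases from a member with percentiles of 71.8 and 57.5 in DEK KO and 31.5 and 28.8 in WT control. Mature sequences are from RefSeq, and whether these microRNAs were expressed was not measured.

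DEK itself (chromosome 6) contained 4 shared regions, and 1 of them was a member. The region within its span at chr6:18242299-18243360 stood at 65.9 and 66.9 in DEK KO and at 38.5 and 42.0 in WT control, a margin of 23.9. Over DEK's promoter the peak did not reach the threshold, with 15.3 and 37.7 against 2.32 and 7.54. A region inside the gene, 3.06 kb from its end of higher coordinate (chr6:18260237-18261471) had 62.8 and 24.0 in DEK KO against 68.3 and 51.2 in WT control, so the DEK KO replicates lay far apart there. A region nearer the other end (chr6:18226420-18227187) stood lower in the knockout, with 30.05 and 35.7 in DEK KO against 47.0 and 56.4 in WT control. Accessibility within a gene edited by guide RNAs does not check the knockout.

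Seen over all 2292 members, the median percentile was 61.8 and 63.9 in DEK KO replicates 1 and 2, against 23.3 and 21.1 in WT control replicates 1 and 2. Both DEK KO percentiles were 50 or more in 1490 members (65.0%), and a WT control percentile was already 50 or more in 321 members. The authors' fold enrichment, which is pileup over local background at the summit within a library, had medians of 8.73 and 10.2 in the DEK KO lists and of 6.02 and 5.36 in the WT control lists. Over all shared regions it was 7.19 and 8.04 in DEK KO and 7.47 and 6.94 in WT control, so the lists did not differ by a common shift of this size. Peaks in members were also wider in DEK KO, with medians of 742 and 719 bp against 549.5 and 553 bp in WT control, while over all shared regions they were 758 and 705 bp against 737 and 765 bp. Summits lay close together, with a median distance of 33.5 bp between the mean DEK KO and the mean WT control summit and 83.0% of members within 100 bp, near the 31 bp and 83.5% of all shared regions. A single peak in every list was found for 97.5% of members and 95.2% of all shared regions.

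**Figure D2:**
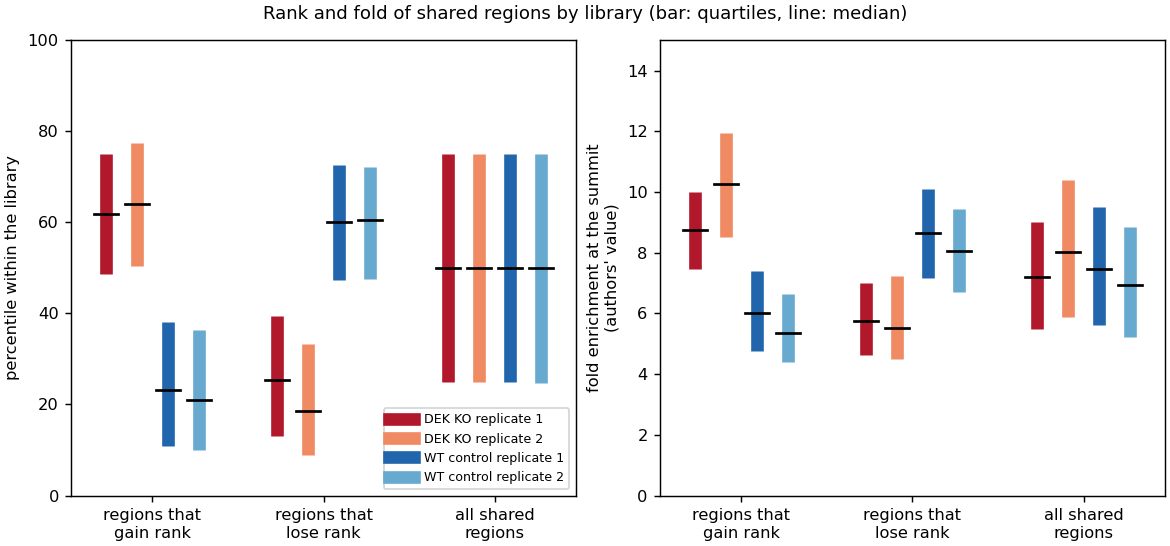
Percentile among shared regions (left) and fold enrichment (right) in each library for regions that gain rank, regions that lose rank and all shared regions; bars span the quartiles and lines mark medians. Member medians were 61.8 and 63.9 in DEK KO and 23.3 and 21.1 in WT control, which follows from the rule.

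Margins ran from 20 up to 77.8 with a median of 27.1. There were 864 members with a margin of 30 or more, 306 with 40 or more, 86 with 50 or more and 17 with 60 or more. In 358 members (15.6%) both WT control percentiles were under 10, and in 322 (14.0%) both were under 25 while both DEK KO percentiles were 50 or more. In 73 members (3.18%) both DEK KO percentiles were 90 or more, so few members joined the strongest sites. Just inside the threshold, the regions nearest ATP10A, ADAMTS1 and GRAMD1B had margins between 20.007 and 20.009, and just outside it those nearest RBMS1, PSMG1 and PRKCE had 19.995 to 19.999. The replicates of a genotype differed by a median of 6.41 percentile points in DEK KO and 5.63 in WT control among members, and by 7.90 and 6.32 over all shared regions. The rule itself favours regions whose replicates lie close, because it takes the lower DEK KO and the higher WT control percentile. Across the 61035 shared regions, which share each library's depth and composition, percentiles correlated at 0.887 between the DEK KO lists, at 0.929 between the WT control lists and at 0.797 to 0.840 between genotypes. Leaving out a library makes the rule easier to meet: 4760 regions gained rank without DEK KO replicate 1, 4247 without DEK KO replicate 2, 4201 without WT control replicate 1 and 3939 without WT control replicate 2.

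Members lay away from gene ends. Only 100 of 2292 (4.36%, exact 95% interval 3.56 to 5.28) were within 1 kb of either end of a protein-coding gene, against 11183 of the 58743 other shared regions (19.0%, 18.7 to 19.4). Regions that lost rank were similarly placed, with 79 of 1666 (4.74%, 3.77 to 5.88), so a low share at gene ends was a trait of both directions. The share was also counted by mean percentile over the 4 libraries, which are those the rule used. Among regions with a mean percentile of 20 to 40 it was 4.19% for members and 11.2% for the other shared regions, from 40 to 60 it was 4.78% and 15.6%, and from 60 to 80 it was 4.69% and 23.6%. Of the 100 gene-end members, 50 lay at a start of transcription and 24 at an end, and 26 were at genes whose strand the promoter table does not give. Over all 11283 shared regions at gene ends, 71.7% lay at starts and 10.7% at ends, with the strand unknown for 1992. Of the 79 that lost rank, 68.4% lay at starts and 17.7% at ends, with the strand unknown for 11. Because the part of unknown strand differs, these shares are not directly comparable.

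Between genes lay 1197 members (52.2%, 50.2 to 54.3), against 38.0% of the other shared regions (37.6 to 38.4) and 43.1% of those that lost rank (40.7 to 45.5). Inside gene spans and away from ends were 995 members (43.4%), 43.0% of the other shared regions and 52.2% of those that lost rank. The 2 directions thus differed in whether they fell between or inside genes, with intervals that did not overlap. The median distance to a gene end was 36.3 kb for members, 40.9 kb for regions that lost rank and 20.7 kb for shared regions outside the member set. More than 50 kb from any gene end were 972 members (42.4%) and more than 500 kb were 87 (3.80%), against 31.8% and 2.55% of the other shared regions. No test of enrichment was made on these shares, because neighbouring regions are not independent.

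**Figure D3:**
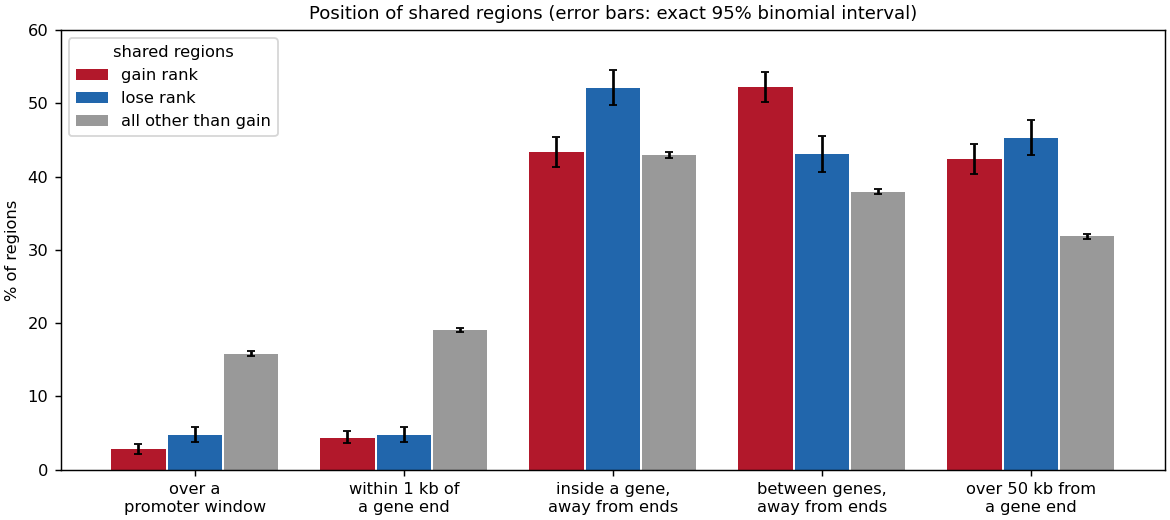
Share of regions in each position class, in percent, for regions that gain rank (2292), regions that lose rank (1666) and shared regions outside the gain set (58743), with exact 95% binomial intervals. Members lay at gene ends in 4.36% of cases, against 19.0% for the other shared regions, and between genes in 52.2% against 38.0%.

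Members were spread over the genome and not gathered in a few segments. Of 496 bins of 5 Mb that held 50 or more shared regions, 484 had at least 1 member and 8 had members among more than 10% of their shared regions. The highest share was 15.4% (8 of 52) at 70 to 75 Mb of chromosome 13, the bin of the KLF12 region, followed by 12.8% (17 of 133) at 5 to 10 Mb of chromosome 5. Another member lay within 50 kb of 345 members (15.1%, 13.6 to 16.6), against 11% of the other shared regions, and a region that lost rank lay that near in 136 (5.93%, 5.00 to 6.98), against 9.15%. Sites with a peak in each DEK KO list but none in a WT control list were within 50 kb of 36.8% of members and of 32.7% of the other shared regions. Shared regions within 100 kb of a member, with members left out, had a median difference of 0.025 percentile points between the mean DEK KO and mean WT control percentiles, against -0.450 over all shared regions. Their quartiles of -7.47 and 7.42 were also close to the -8.38 and 7.55 of all shared regions, and since members were left out of this set, it does not show how members and their surroundings compare. Within 1 Mb of a member, where most shared regions lie, the median difference was -0.635.

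Chromosomes differed in how their shared regions stood as a whole. On chromosome 22 the median difference of all shared regions was 6.09 percentile points, 73.7% of them stood higher in DEK KO, 51 of 982 (5.19%, 3.89 to 6.77) gained rank and 7 (0.713%) lost it. On chromosome 1 the median difference was -3.49, with 153 of 6184 regions (2.47%, 2.10 to 2.89) that gained rank and 250 (4.04%) that lost it. When percentiles were taken within each chromosome, an alternative chosen after seeing the data, the share that gained was 3.36% on chromosome 22 and 3.61% on chromosome 1, and 91.4% of the members still gained rank. Leaving out a library raised the share on chromosome 22 to between 8.33% and 12% and on chromosome 1 to between 4.19% and 5.60%. Chromosomes 5 and 20 had 5.17% (201 of 3885) and 5.36% (95 of 1773) of shared regions gaining rank at median differences of -0.0680 and 1.47. DNA copy number was not measured here, and its part in these chromosome differences was not tested. Members named here on chromosome 22, such as SMARCB1 and RPL3, share that background.

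**Figure D4:**
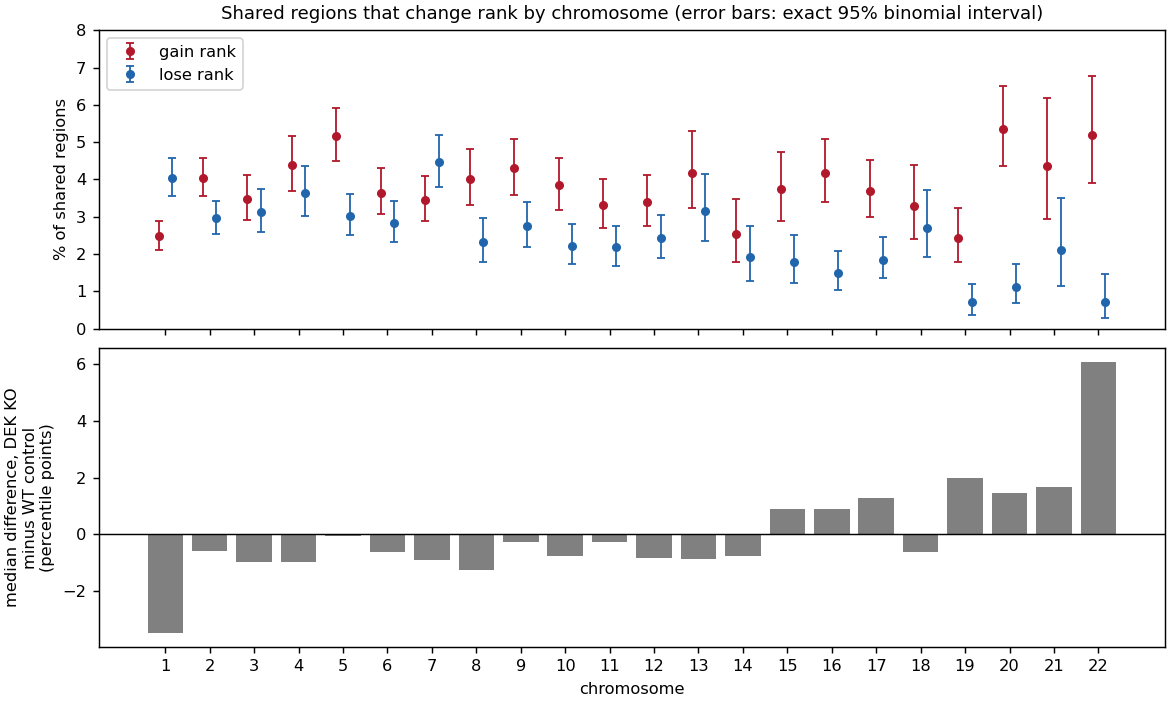
Top, share of the shared regions of each chromosome that gain or lose rank, in percent, with exact 95% binomial intervals. Bottom, median difference of all shared regions of the chromosome, in percentile points, DEK KO minus WT control: it was 6.09 on chromosome 22 and -3.49 on chromosome 1.

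Away from gene ends, the region with the largest margin lay inside DNAJC5, a synaptic vesicle chaperone, 7.53 kb from its end (chr20:63902659-63903300). It had percentiles of 94.3 and 95 in DEK KO replicates 1 and 2, against 16.5 and 7.88 in WT control replicates 1 and 2, with folds of 12.4 and 13.4 against 5.64 and 4.44. A weak site in both WT control lists was thus a strong one in both DEK KO lists. Inside RBFOX1, a neuronal splicing factor with a very long gene, a member (chr16:5905616-5906697) stood at 78.8 and 81.3 in DEK KO and at 1.02 and 5.38 in WT control. KLF12, a repressor of the Kruppel-like family, held a member in its span (chr13:74243260-74244340) with 75.1 and 81.2 against 1.54 and 4.49. Both of these were near the calling limit in WT control, with −log10 p of 5.15 and 7.0 at RBFOX1 and of 5.53 and 6.61 at KLF12.

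The region in ATPSCKMT, a lysine methyltransferase of ATP synthase (chr5:10229353-10229896), had percentiles of 71.6 and 72.8 in DEK KO against 3.13 and 0.991 in WT control. It too was near the calling limit in WT control, with −log10 p of 6.35 and 4.58. The region in ZNF407, a zinc finger gene (chr18:74609266-74609958), had percentiles of 91.6 and 89.7 against 22 and 21.4. At SULT1C3, a sulfotransferase gene (chr2:108257698-108258350), they were 85.2 and 90.3 against 18.6 and 19.1. Here the DEK KO replicates differed by a few points while the genotypes lay more than 65 points apart, which follows from naming the regions of largest margin. Members nearest C1QTNF7, PGM2, TDRD7, C8orf90 and OR1K1 had margins from 62.2 to 66.4. Olfactory receptor genes have close copies, but the OR1K1 region lay 2.05 kb outside the gene. Whether reads there map to a single place was not tested, so this region stays uncertain. PGM2 encodes a phosphopentomutase and TDRD7 a Tudor-domain protein of RNA granules.

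SCNN1B, the beta subunit of the epithelial sodium channel of the collecting duct, held a cluster of 3 members. The strongest (chr16:23279630-23281327) lay 1.40 kb from the gene's end of lower coordinate, inside the gene, and had percentiles of 79.7 and 81.4 in DEK KO against 0.893 and 11.9 in WT control. Its −log10 p in WT control replicates 1 and 2 was 4.83 and 9.23, near the calling limit in replicate 1. A second (chr16:23285961-23286830) had 72.0 and 83.8 against 13.8 and 7.63, and the third (chr16:23274797-23275534), outside the gene, had 46.8 and 61.3 against 17.0 and 8.27. All 3 regions had WT control percentiles under 20 and none was at the gene end itself. With 5 shared regions assigned to it by nearest gene end within 50 kb, SCNN1B had 3 that gained rank and 0 that lost it.

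**Figure D5:**
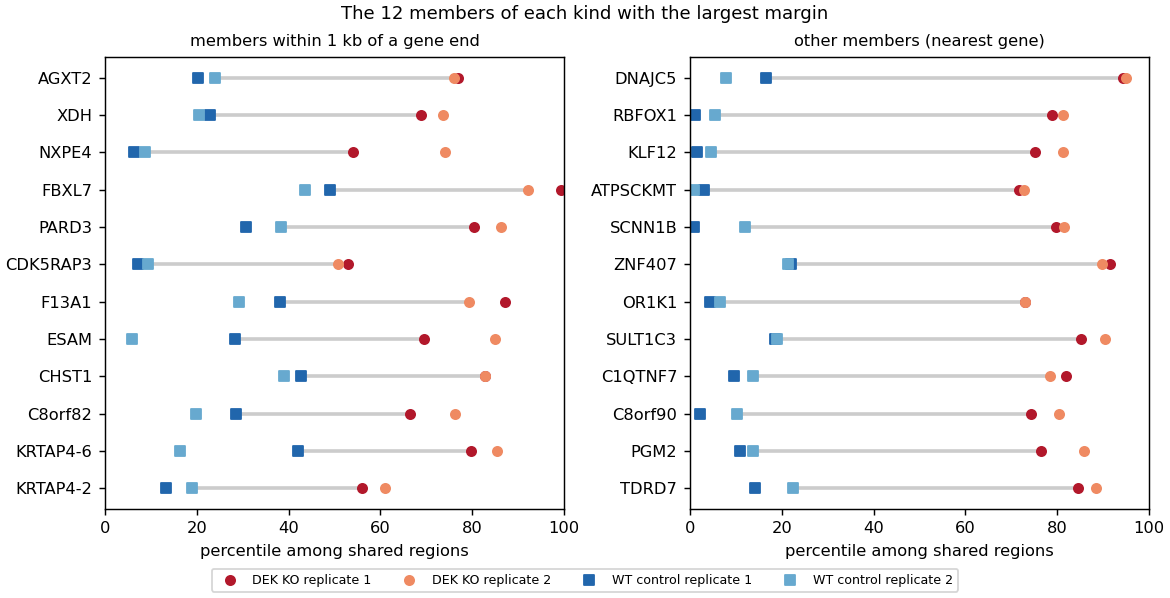
Percentile among shared regions in each library for the 12 members within 1 kb of a gene end (left) and the 12 other members (right) with the largest margins; circles are DEK KO, squares WT control, and the grey line spans the margin. The widest gap is at DNAJC5, with 94.3 and 95 in DEK KO and 16.5 and 7.88 in WT control.

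Among gene-end members, AGXT2, a mitochondrial aminotransferase of the kidney, had the largest margin. Its region (chr5:35046551-35047381) stood at 76.8 and 76.1 in DEK KO replicates 1 and 2, against 20.3 and 24.1 in WT control replicates 1 and 2. The XDH region (chr2:31414780-31415646), over the promoter printed above, had 68.8 and 73.6 in DEK KO against 23 and 20.6 in WT control, with folds of 7.81 and 9.48 against 5.77 and 5.08. FBXL7, a ubiquitin ligase subunit, had the strongest region of this group, 231 bases from the gene's end of higher coordinate (chr5:15938800-15939562), with 99.2 and 92.1 against 49.0 and 43.6. PARD3, a scaffold of cell polarity (chr10:34110130-34110891), had 80.3 and 86.2 against 30.8 and 38.4, and F13A1, the A chain of coagulation factor XIII, had 87.1 and 79.4 against 38.2 and 29.2. In WT control these 5 regions had percentiles from 20.3 at AGXT2 to 49.0 at FBXL7, and the rule requires a peak there for every member.

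At NXPE4 and its neighbour NXPE2 a member (chr11:114677820-114678757) had percentiles of 54.0 and 74.0 in DEK KO and 6.30 and 8.83 in WT control. CDK5RAP3, a component of protein UFMylation, had 52.9 and 50.7 against 7.26 and 9.32 (chr17:47967705-47968228). Its margin of 41.4 came to 11.7 when regions were ranked by fold in place of −log10 p, an alternative under which 66.0% of all members still gained rank. ESAM, an endothelial adhesion molecule, had 69.4 and 85.0 in DEK KO against 28.4 and 5.86 in WT control. CHST1, a sulfotransferase of keratan sulfate, had 82.7 and 82.7 against 42.7 and 38.9. C8orf82 had a margin of 37.9, and the keratin-associated genes KRTAP4-6 and KRTAP4-2 had 37.7 and 36.9. The genes of this cluster are close copies, and whether reads there map to a single place was not tested, so both values are uncertain.

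Assigned by nearest gene end within 50 kb, 1320 members fell to 1210 genes, of which 1113 had 1 member, 86 had 2 and 11 had 3 or more. Of these 1210 genes, 73 also had a region that lost rank. MED27, a Mediator subunit, had the most, with 5 of 7 shared regions that gained and 0 that lost rank, and margins from 21.1 to 41.8. Its strongest member (chr9:132099912-132100604) stood at 91.1 and 91.5 in DEK KO against 49.2 and 40.8 in WT control. NIM1K, a kinase related to AMPK, had 3 of 5, among them a promoter region at 80.8 and 83.6 in DEK KO against 59.1 and 34.3 in WT control. TEKT1, a tektin of cilia, had 3 of 3, EPM2A, the glycogen phosphatase laforin, 3 of 4, and SLCO4A1, an organic anion transporter, 3 of 9. By fold, the SLCO4A1 member at chr20:62673647-62675999 did not stand higher, with 5.03 and 5.37 in DEK KO against 5.25 and 5.28 in WT control. The other SLCO4A1 members had higher folds in both DEK KO lists. The other genes with 3 members were GDNF, ADD2, HK2, SLA and LOC124904930, which tied on the count.

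Among pathways of this tumour, HIF and hypoxia genes had 4 members among 131 assigned shared regions (3.05%), close to the 3.19% of all genes, with 3 that lost rank. Over all genes, 911 of 41359 assigned shared regions lost rank. P4HA2, a collagen prolyl hydroxylase, led them with 77.6 and 78.2 in DEK KO against 28.5 and 34.4 in WT control (chr5:132225317-132226088), and a region 32.3 kb from HIF1A had 83.3 and 82.4 against 55.3 and 50.1. Glycolysis genes had 6 of 59 (10.2%, exact 95% interval 3.82 to 20.8) with 1 that lost rank, and 3 of the 6 were at HK2, the inducible hexokinase. The HK2 region at chr2:74850873-74851940 stood at 76.5 and 74.2 in DEK KO and at 46.1 and 46.4 in WT control. PGAM1, a phosphoglycerate mutase, had 70.1 and 68.9 against 36.4 and 29.1. Chromatin tumour suppressors of renal carcinoma had 1 of 27, growth factor receptors and ligands 6 of 189 (3.17%), and lipid and sterol genes 2 of 88. KDR, a VEGF receptor, had 75.3 and 76.0 against 21.2 and 30.1, and MET, the HGF receptor, had 2 members with margins of 26 and 23.

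Renal lineage factors had 3 members among 83 shared regions (3.61%) and 3 that lost rank, with a median difference of -3.56 over all their regions. IRX3, a homeobox factor of the nephron, had a region 17.2 kb away (chr16:54265503-54266116) at 72.7 and 66.0 in DEK KO against 8.51 and 16.4 in WT control. PAX2 had one 17.3 kb away (chr10:100847285-100848002) at 77.1 and 79.1 against 33.0 and 41.5, and PAX8 one inside the gene (chr2:113219853-113220736) at 54.7 and 51.1 against 27.9 and 19.5. Proximal tubule genes had 1 of 76, at SLC5A1, a glucose transporter. Distal nephron genes had 5 of 40 (12.5%, 4.19 to 26.8) and 0 that lost rank, but these came from SCNN1B and from SLC26A4, an anion exchanger with members of margins 28.4 and 28.0, and the median difference over the list was 0.628. The share of that list thus rested on a pair of loci.

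Mesenchymal genes had 5 of 132 (3.79%) and 5 that lost rank, with TWIST2 at 52.0 and 74.2 in DEK KO against 16.9 and 10.5 in WT control. Epithelial junction and keratin genes had 3 of 78 and 2 that lost rank, with KRT7, a keratin of simple epithelia, at 56.1 and 67.3 in DEK KO against 15.9 and 27.5 in WT control. AP-1 family genes had 3 of 59, at JUND, BATF and MAFF, and 0 that lost rank. Hippo and TEAD targets had 2 of 152 and 7 that lost rank, and TGF-beta, SMAD and ID genes 2 of 140 and 7. WNT pathway genes had 4 of 109, with TCF7L1, a repressor of WNT targets, at 83.2 and 81.2 against 39.9 and 28.8. NF-kB and inflammatory genes had 3 of 88 and 0 that lost rank, CXCL8 and CXCL1 among them.

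Interferon response genes had 4 of 65 (6.15%, 1.7 to 15), although the median difference over all their regions was -3.56. MX2, an antiviral GTPase, stood at 66.4 and 61.3 in DEK KO against 14.0 and 7.37 in WT control, and RIGI and IFIH1, sensors of viral RNA, had margins of 28.5 and 30.2. The region next to IFIT3 lies over a promoter of LIPA and had 33.8 and 22 against 0.411 and 0.349. DEK partners and histone chaperones had 2 of 79, at PARP1 (44.8 and 42.5 against 10.4 and 5.51) and SUPT6H, p53 targets 1 of 71 (ZMAT3), and cytosolic ribosomal protein genes 1 of 77 (RPL3). Cell cycle and replication genes had 0 of 66, which allows a share of up to 5.44%, and 0 that lost rank. Of lists for other cell types, endothelial and fibroblast markers had 4 of 53, 2 of them at ERG, neuronal markers 1 of 55, blood cell markers 1 of 16 and hepatocyte markers 0 of 15, which allows up to 21.8%. The list shares are descriptions, and the interval of each list named with an interval includes the 3.19% of all genes except those of glycolysis and distal nephron genes.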

How the data were processed

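ATAC-seq of 4 libraries was used. The deposited narrowPeak lists hold the authors' fold enrichment, −log10 p, −log10 q and summit offset per peak, with 1 list per library and no pooling; the deposited score was 10 times −log10 q as a whole number. Per the submitters' processing notes, the peak caller was MACS2 (2.2.7.1) and the aligner-side tools were Bowtie2 (2.2.5) and cutadapt (1.18) on GRCh38; settings, and whether reads were shifted for the transposase, are not given in the sources used here. Since the library protocol in the labels describes RNA, how the ATAC libraries were made is not given either.

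The lists held 100037 and 96862 peaks on chromosomes 1 to 22 in DEK KO replicates 1 and 2, and 87220 and 88059 in WT control replicates 1 and 2. Read depth is unknown, and −log10 p depends on it, so members were chosen by ranks within a list; folds and widths set beside each other across lists are the authors' values, with no correction for depth. Python 3.11.15, numpy 2.4.6, pandas 2.3.3 and scipy 1.17.1 were used. The rule was run on simulated lists with planted gains to check the code, which does not give the rate of false calls in these data. Gene positions and promoters came from RefSeq (GRCh38.p14). Binomial intervals cover counting error only. The members and the 24 gene lists were chosen with earlier results of these data known. Named were DEK, the 12 gene-end and 12 other members with the largest margins, the 6 genes with the most members, up to 4 members per list, and those next to the threshold; members at other promoters and at microRNAs were picked after their values were seen. Some items are not reported here.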

Additional observations from a re-analysis of the deposited data

How the results depend on the processing

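The choice of margin set the count: 5684 regions gained rank at a margin of 10 and 864 at 30, and the ratio of regions that gained to those that lost rank, 1.38 as reported, was 1.11 and 1.75. With no margin asked for, 14850 shared regions (24.3%) had both DEK KO percentiles above both WT control percentiles. The reverse held for 15690 (25.7%), so the excess of gains was seen only with a margin. Gene-end shares were 6.79% at a margin of 10, 5.37% with −log10 q of at least 5, and 7.68% with ends taken as 2.5 kb, against 4.36% as reported. The ratio was 3.54 with percentiles among all peaks of a list, where the DEK KO lists are longer, and 1.66 less the median of the 5 Mb bin, chosen after seeing the data. Without each library in turn, the count ran from 3939 to 4760, the ratio from 1.05 to 1.24 and the gene-end share from 5.28% to 6.91%, and 94.5% to 98.6% of the members still gained rank. That share is built in, because the rule is easier to meet with a library left out, and members drop out only through re-ranking. By fold, 66.0% of the members still gained rank. The replicate block, with differences taken within replicate numbers, gave 2991 regions and a ratio of 1.29. It must include every member, because no difference within a replicate number can be smaller than the margin. The replicate differences of DEK KO and of WT control correlated at 0.0130 over the shared regions, so the ranks showed no common effect of replicate number. This cannot tell whether the samples were prepared as pairs. Neighbours within 1 Mb had a median difference of -0.635. The cause of these shifts was not tested. For the 24 members of largest margin, the alternatives gave 330 margins, of which 329 were 20 or more and that of CDK5RAP3 by fold was 11.7. These members were picked for their large margins, and leaving out a library or using the replicate block can hardly lower a margin. The tally thus does not measure how stable the members are. A further 6 margins could not be had because the region was no longer shared: those at RBFOX1, KLF12, ATPSCKMT, SCNN1B and C8orf90 with −log10 q of at least 5, and that at SCNN1B with 1 peak in every list. Depth is unknown, so its effect on the weakest sites was not tested.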

Other observations

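Chromosome X lay outside the rule. Set against the autosomal values, 48 of its 1651 shared regions (2.91%) gained rank by 20 or more and 42 (2.54%) lost it. GDNF, a growth factor of ureteric bud outgrowth, had 3 of 8 assigned shared regions that gained rank and 0 that lost it.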
